A study of Mus musculus with 6 samples.

Results

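The genes described here are 35 genes of DNA replication and S phase. The list covers origin licensing, helicase activation, the replicative polymerases, the sliding clamp, deoxynucleotide synthesis and the regulators of S phase entry. All 35 were measured, out of 18193 genes in all, each by the probe set that matched it alone and was brightest on average. Expression was read on 6 Affymetrix mouse whole-genome arrays, 3 from SAP-deficient and 3 from wild-type (WT) CD4 T cells. Both groups carried OT-II, a transgenic T cell receptor for a peptide of ovalbumin, and came from spleen and lymph nodes. SAP is the adaptor protein encoded by Sh2d1a that passes on signals of SLAM-family receptors. Naive cells had been sorted as CD44 low, CD62L positive and CD25 negative and were then kept for 3.5 days with peptide and with T cell-depleted splenocytes whose division had been blocked by mitomycin C. The medium held IL-21 at 50 ng/ml, IL-6 at 100 ng/ml and antibodies to IFN-γ, IL-12, IL-4 and TGF-β, a mixture that pushes cells toward a follicular helper (Tfh)-like state. Per the labels, the RNA came from cells that were dividing without synchronisation. The age and sex of the mice, and whether the 3 RNAs of each genotype stem from different mice or cultures, are not given in the labels. The p-values below thus reflect array-to-array spread that may be technical.

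A cell copies its genome once per division. In G1 the origin recognition complex, Cdc6 and Cdt1 load the ring of Mcm2 to Mcm7 onto DNA. At the start of S phase, under kinases that include that of cyclin E, Cdc45 and the GINS proteins join this ring. With Mcm10 as an activator, the joined ring becomes the active helicase. Polymerase alpha with primase lays down primers, polymerases delta and epsilon extend them on the PCNA clamp, and Fen1 and Lig1 join the fragments of the lagging strand. Most of these genes are transcribed under E2F factors as cells pass from G1 into S phase, and activated T cells transcribe them strongly.

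The arrays are numbered 1 to 3 within each genotype in the order in which they were deposited. The labels do not pair them, although arrays of equal number deviated together from their genotype means, so the differences between arrays of equal number are given as a description. The targeted transcript set the genotypes apart: Sh2d1a was at 5.47, 4.10 and 4.92 on the 3 SAP-deficient arrays, against 9.50, 8.52 and 9.39 on the WT arrays (log2 levels, as are all levels below), a change of -4.31 with an adjusted p of 0.0501 by limma, just short of the threshold. With the array number as a replicate block its adjusted p was 1.99e-07, so the block changed that call. T cell markers were high on every array, with Cd3d between 12.78 and 13.03 and Cd4 between 9.44 and 9.87, while of 16 B cell genes measured Cd79a lay between 5.56 and 6.02 and Ms4a1 between 5.10 and 5.74, but Ighm between 9.98 and 10.97 and Pou2af1 between 10.95 and 11.19. Cd74, listed here with the MHC class II genes of antigen-presenting cells, lay between 9.65 and 10.18. Among CD8 T cell genes Cd8a lay between 5.59 and 5.94 and Cd8b1 between 8.17 and 9.10. Of the defining Tfh genes, Cxcr5 was dim, between 5.01 and 6.12, whereas Il21 lay between 11.54 and 12.57. One array stood apart for the replication genes: WT array 3 held the lowest level for 31 of the 35, against 24.7% of all genes. That array was extreme in both directions over all genes, with the highest level for 23.1% of them, but for 0 of the 35. Fitted changes of gene lists, and of those of the 35 genes given on every array, are therefore printed with and without it. Other list values are differences by number or levels by array.

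Averaged over all arrays, the replication genes did not differ detectably between the genotypes. Of the 35, SAP-deficient cells had 29 at a higher and 6 at a lower mean level, with changes between -0.14 for Cdc6 and 0.22 for Pola1. Their median change was 0.062, against 0.0078 over all genes, of which 9700 were higher (log2, SAP-deficient minus WT throughout). Limma called none of the 35 and none of all genes (0%), and none of the 35 had an unadjusted p under 0.05, which 0.566% of all genes had on the higher and 0.748% on the lower side. The smallest p among the 35 was 0.341 and their adjusted p was 1.00 for each. All 35 intervals (95%) held 0, and standard errors ran from 0.064 (Pcna) to 0.31 (Pola1). For none of the 35 did all SAP-deficient arrays lie above all WT arrays, an order that 2.38% of all genes showed, or below them, as 2.94% did.

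This average joined 3 unlike differences. Between the arrays numbered 1, 32 of the 35 genes were lower in SAP-deficient cells, between those numbered 2, 26 were lower, and between those numbered 3 all 35 were higher. The mean differences over the 35 genes were -0.16, -0.032 and 0.38 for numbers 1 to 3 (SD between genes 0.14, 0.059 and 0.15), against 0.014, -0.0099 and 0.0082 over all genes. For number 3, the mean over the 35 genes is 1.30-fold higher on SAP-deficient array 3 than on WT array 3. With a step of 0.25 (1.19-fold), 28 of the 35 were higher and 0 lower in number 3, against 11.4% and 10.6% of all genes. In number 1, 0 were higher and 5 lower by that step (Cdc6, Ccne2, Lig1, Rrm2 and Tyms), against 7.64% and 6.54% of all genes. In number 2, 0 of the 35 passed it in either direction, against 4% higher and 5.22% lower. The sequence lower, lower, higher held for 24 of the 35 and for 12.6% of all genes. Cdt1 alone was higher in all 3 numbers, by 0.00070, 0.0038 and 0.11, where 15.6% of all genes were; none was lower in all 3, against 13.1%. The numbers therefore disagreed in direction for 34 of the 35 genes.

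**Figure D1:**
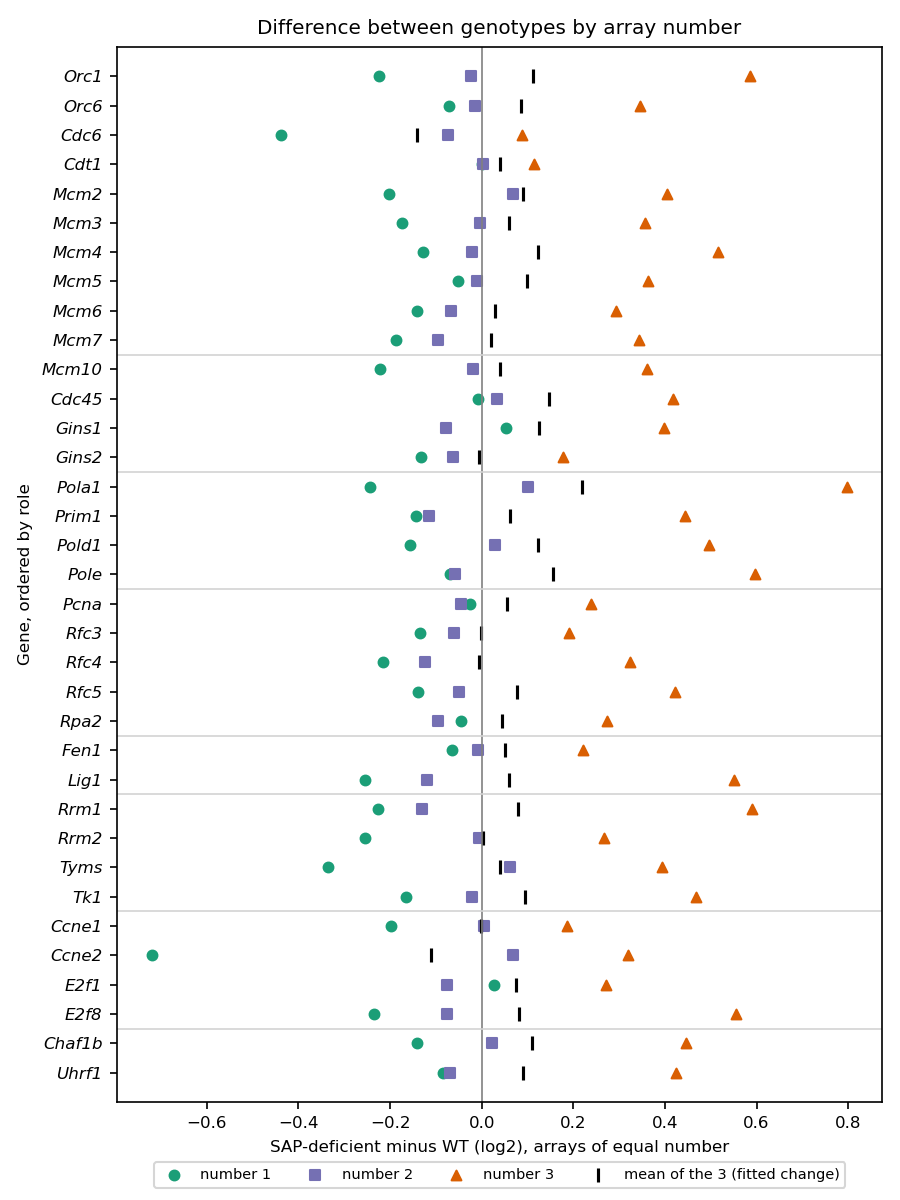
SAP-deficient minus WT level (log2, x axis) of each of the 35 genes (y axis, grouped by role) for the arrays numbered 1, 2 and 3, with the fitted change as a black bar. All 35 triangles of number 3 lie above 0, between 0.088 and 0.80, while 32 of the circles of number 1 lie below it.

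The levels on single arrays show where these differences arose. Relative to each gene's own mean over the 6 arrays, the 35 genes averaged -0.056, 0.080 and 0.068 on SAP-deficient arrays 1 to 3, against 0.11, 0.11 and -0.31 on WT arrays 1 to 3. On WT array 3, 34 of the 35 lay below their own mean. The remaining 5 arrays averaged between -0.056 and 0.11, and all 3 SAP-deficient values lay below those of WT arrays 1 and 2. The spread between arrays of a genotype was larger in WT cells for 29 of the 35 genes, and for 10178 of all 18193 genes. For the 35 genes the median SD was 0.14 in SAP-deficient cells, against 0.26 in WT cells. Over all genes these medians were 0.14 in SAP-deficient and 0.15 in WT cells. Without WT array 3, 8 of the 35 genes were higher and the median change was -0.085. The medians of all 8 role groups were then below 0, from -0.16 (clamp group) to -0.034 (origin licensing). With both arrays numbered 3 left out, 2 were higher (Cdt1 and Cdc45) and the median was -0.093. With both arrays numbered 1 left out, all 35 were higher (median 0.18), and with both numbered 2 left out, 32 were (median 0.14). In these RNA pools, fewer cells in S phase and less of these RNAs per cell cannot be told apart.

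**Figure D2:**
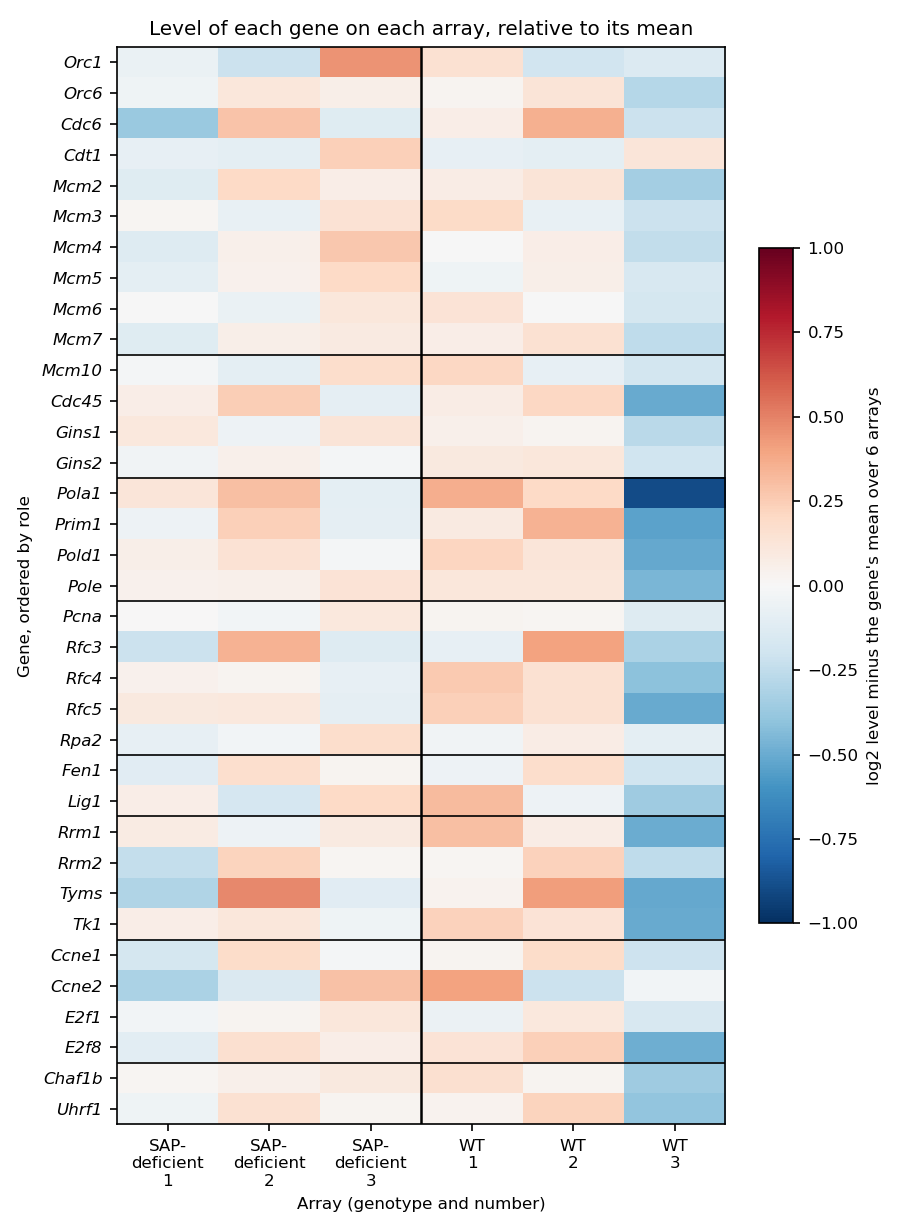
Level of each of the 35 genes (rows, grouped by role, black lines between groups) on each array (columns, SAP-deficient left, WT right), as log2 level minus the gene's mean over the 6 arrays. The column of WT array 3 is below the mean for 34 of the 35 genes, and that of SAP-deficient array 1, the next in number, for 22.

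Origin licensing genes were 9 of 10 higher on average, with a median change of 0.073 and mean differences of -0.16, -0.024 and 0.34 by number. With WT array 3 left out, 4 of 10 were higher and the median change was -0.034. Mcm5, a subunit of the helicase ring, was at 11.28, 11.42 and 11.57 in SAP-deficient cells, against 11.33, 11.43 and 11.21 in WT cells. The groups overlapped, with SAP-deficient array 3 highest and WT array 3 lowest. Its change was 0.10 (95% interval -0.13 to 0.33), and 0.044 without WT array 3. Orc1, the ATPase of the origin recognition complex, was at 8.06, 7.92 and 8.59 in SAP-deficient cells, against 8.29, 7.95 and 7.999 in WT cells. Only SAP-deficient array 3 stood out, above the other 5 arrays, and leaving it out turned the change of 0.11 (-0.34 to 0.56) to -0.085, while it was 0.073 without WT array 3. All 6 ring subunits were higher in number 3, by 0.29 (Mcm6) to 0.51 (Mcm4), and all 6 lower in number 1, by -0.052 (Mcm5) to -0.20 (Mcm2). Their WT array 3 was the lowest of 6 in every case.

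Like Orc1, the loaders Cdc6 and Cdt1 did not have WT array 3 as their lowest. Cdc6 was at 8.59, 9.24 and 8.83 in SAP-deficient cells, against 9.03, 9.31 and 8.75 in WT cells, with both arrays numbered 2 above the other 4. Its lowest array was SAP-deficient array 1, and its number 3 difference of 0.088 was the smallest of the 35. Its change was -0.14, and -0.28 without WT array 3. Cdt1, which geminin holds in check after origins fire, was at 10.59, 10.58 and 10.91 in SAP-deficient cells, against 10.59, 10.58 and 10.80 in WT cells. Its change was 0.039, and 0.11 without WT array 3. For Cdt1, WT array 3 was the highest WT array, and over the 6 arrays its level correlated at -0.40 with the mean of the other 34 genes. For Orc6, a small subunit of the origin complex, the differences by number were -0.072, -0.014 and 0.34.

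The 4 genes of helicase activation had mean differences of -0.078, -0.031 and 0.34 by number. Cdc45, which joins the ring and GINS in the moving helicase, was at 8.68, 8.86 and 8.53 in SAP-deficient cells, against 8.69, 8.82 and 8.11 in WT cells. WT array 3 lay under all other arrays, and WT arrays 1 and 2 lay within the range of the SAP-deficient ones. The change was 0.15 (-0.31 to 0.61), and -0.069 without WT array 3. Mcm10, an activator of the loaded helicase, was at 8.95, 8.87 and 9.15 in SAP-deficient cells, against 9.17, 8.89 and 8.79 in WT cells. Its WT range enclosed all SAP-deficient arrays, and its change was 0.039 (-0.29 to 0.37), or -0.043 without WT array 3. The GINS subunit genes Gins1 and Gins2 differed by 0.40 and 0.18 in number 3.

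Polymerase and primase genes had the highest mean difference in number 3 among the 8 role groups. All 4 were higher on average (median 0.14), and the mean differences by number were -0.15, -0.011 and 0.58. With WT array 3 left out, 0 of the 4 were higher and the median change was -0.14. Pola1, the catalytic subunit of polymerase alpha and an X-linked gene, was at 7.85, 8.03 and 7.63 in SAP-deficient cells, against 8.09, 7.92 and 6.83 in WT cells. WT array 3 lay 1.26 below WT array 1, so the WT arrays held both ends of its range, while the 3 SAP-deficient arrays spanned 0.40. The change was 0.22 (-0.50 to 0.94), and -0.17 without WT array 3. Prim1, the small primase subunit, was at 9.73, 10.02 and 9.70 in SAP-deficient cells, against 9.87, 10.14 and 9.25 in WT cells. Both arrays numbered 2 were its highest and WT array 3 its lowest. Its change of 0.062 (-0.44 to 0.57) turned to -0.19 without WT array 3. Pold1 and Pole, the catalytic subunits of polymerases delta and epsilon, differed by 0.50 and 0.60 in number 3 and by -0.16 to 0.029 in numbers 1 and 2.

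The clamp and its partners had the lowest mean difference in number 3 among the 8 role groups, at 0.29. Pcna, the sliding clamp, was at 12.86, 12.82 and 12.96 in SAP-deficient cells, against 12.88, 12.87 and 12.72 in WT cells, and all 6 arrays lay within 0.24 of each other. Its change was 0.056 with the narrowest interval of the 35 (-0.091 to 0.20), and 0.0047 without WT array 3. Rfc5, a subunit of the loader that opens the clamp, was at 9.68, 9.68 and 9.49 in SAP-deficient cells, against 9.82, 9.73 and 9.07 in WT cells. WT arrays 1 and 2 lay above all SAP-deficient arrays and WT array 3 under them, and the change of 0.077 (-0.37 to 0.53) became -0.16 without that array. The loader genes Rfc3 and Rfc4 differed by 0.19 and 0.32 in number 3, and Rpa2, a subunit of the single-strand binding protein, by 0.27. All 5 genes of this group followed the sequence lower, lower, higher.

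Both genes that finish the lagging strand were lower in numbers 1 and 2 and higher in number 3. Lig1, the ligase that seals Okazaki fragments, was at 9.18, 8.94 and 9.31 in SAP-deficient cells, against 9.43, 9.06 and 8.76 in WT cells. The WT arrays held both the highest and the lowest level. Its change was 0.059 (-0.37 to 0.49), and -0.10 without WT array 3. Fen1, the flap nuclease, was at 10.58, 10.86 and 10.72 in SAP-deficient cells, against 10.65, 10.87 and 10.50 in WT cells, with the arrays numbered 2 highest in both. Its change was 0.050 (-0.23 to 0.33), or -0.036 without WT array 3. Mean differences of the pair by number were -0.16, -0.063 and 0.39.

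The 4 genes of deoxynucleotide supply averaged -0.24, -0.023 and 0.43 by number. Rrm1, the large subunit of ribonucleotide reductase, was at 10.12, 9.98 and 10.13 in SAP-deficient cells, against 10.34, 10.11 and 9.54 in WT cells. Its SAP-deficient arrays spanned 0.15 and its WT arrays 0.80, and the change was 0.079 (-0.36 to 0.52), or -0.15 without WT array 3. Rrm2, the small subunit that is made in S phase, was at 10.44, 10.90 and 10.69 in SAP-deficient cells, against 10.70, 10.91 and 10.43 in WT cells. The arrays numbered 2 were the highest of each genotype. Its fitted change was 0.0022 (-0.36 to 0.36), or -0.12 without WT array 3. Tk1, the salvage kinase for thymidine, differed by -0.16, -0.021 and 0.47 in numbers 1 to 3. Tyms, which makes thymidylate, differed by -0.33, 0.062 and 0.39, but its probe set was dim, with a mean below the median over genes of 6.58.

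Among regulators of S phase entry, cyclin E2 differed from the rest. Ccne2 was at 8.14, 8.31 and 8.74 in SAP-deficient cells, against 8.86, 8.24 and 8.42 in WT cells. WT array 1 was its highest and SAP-deficient array 1 its lowest, and the number 1 difference of -0.72 was the most negative of the 35 in any number. Its change was -0.11, and -0.15 without WT array 3. Ccne1, the other cyclin E, was at 8.62, 8.98 and 8.77 in SAP-deficient cells, against 8.81, 8.97 and 8.59 in WT cells. The ranges of the groups nearly coincided and the change was -0.0021 (-0.35 to 0.34), or -0.10 without WT array 3. E2f8, an E2F family repressor that is itself induced in S phase, was at 7.59, 7.86 and 7.76 in SAP-deficient cells, against 7.83, 7.93 and 7.20 in WT cells. WT array 3 was the lowest of the 6. The change was 0.081 (-0.39 to 0.55), or -0.14 without WT array 3, and over the 6 arrays E2f8 followed the mean of the other 34 genes most closely, at r = 0.99. The activator E2f1 differed by 0.028, -0.075 and 0.27 in numbers 1 to 3.

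The 2 genes of replication-coupled chromatin also had WT array 3 as their lowest. Uhrf1, which directs DNA methylation to new strands, was at 9.99, 10.19 and 10.06 in SAP-deficient cells, against 10.07, 10.26 and 9.64 in WT cells. WT array 2 was its highest and WT array 3 its lowest. Its change was 0.090 (-0.28 to 0.46), or -0.086 without WT array 3. Chaf1b, a subunit of the histone chaperone that follows the fork, was at 7.69, 7.72 and 7.77 in SAP-deficient cells, against 7.84, 7.70 and 7.32 in WT cells. The SAP-deficient arrays lay within 0.075 of each other, while WT arrays spanned 0.51. Its change was 0.11 (-0.25 to 0.47), or -0.039 without WT array 3.

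Beside the low level on WT array 3, the arrays numbered 2 stood apart for part of the list, as they did for many of all genes. For 12 of the 35 genes both arrays numbered 2 lay above the other 4, as they did for 18.2% of all genes. These were Orc6, Cdc6, Mcm2, Cdc45, Prim1, Rfc3, Fen1, Rrm2, Tyms, Ccne1, E2f8 and Uhrf1. For Orc1 and Cdt1 both lay below the other 4, against 17.6% of all genes. Rfc3 shows the first kind, at 8.52, 9.09 and 8.61 in SAP-deficient cells, against 8.66, 9.15 and 8.42 in WT cells, and the arrays numbered 2 were the highest in both genotypes. Its change was -0.0011, and -0.16 without WT array 3. The correlation of a gene with the mean of the other 34 over the 6 arrays had a median of 0.78. It was lowest for Cdt1, Ccne2 (0.18) and Orc1 (0.22), which with Cdc6 are the 4 genes whose lowest array was not WT array 3. On average the genes lay furthest from their own means on WT array 3 (-0.31), so a gene not low there tends to a lower correlation. The correlation and the place of the lowest array are thus not separate observations. These correlations rest on 6 arrays that share 1 normalization and are given as a description.

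Sequence around annotated transcript starts was compared because E2F control is the best known common feature of these genes. RefSeq (build GRCm38.p6) gave a window of 250 bases before to 50 after an annotated transcript start for 30 of the 35 genes. Such a start can lie inside the gene. For Orc1, Cdc6, E2f1 and E2f8 the only window lies wholly inside the annotated gene. Any of the E2F letters TTTCCCGC, TTTGGCGC, TTTGCCGC or TTTCGCGC, on either strand, stood in the windows of 12 of these 30 genes, against 2.6% of 27025 genes. At least 2 matches stood in 5 of the 35 windows of these genes (Mcm3, Mcm5, Mcm6, Mcm7 and Rfc3), against 0.0974% of all windows. CCAAT was present for 18 of 30 genes, against 41.1% of all, and TTTGAA for 4 of 30, against 20.2%. The comparison shares cover every gene with a window, measured on the arrays or not, and were not matched for base composition or expression. Stretches are shown for Mcm5 and Mcm6, in each of which a pair of matches overlaps, and for Pola1 and Cdc6, which had the highest and the lowest difference in number 3. Each reads 5′ to 3′ on the strand of its gene, and capitals mark the E2F letters. They lie at chr8:75109336-75109387, plus strand for Mcm5, chr1:128359725-128359835, minus strand for Mcm6, chrX:93632266-93632313, minus strand for Pola1 and chr11:98907993-98908040, plus strand for Cdc6.
Mcm5: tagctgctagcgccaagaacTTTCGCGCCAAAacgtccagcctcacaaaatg
Mcm6: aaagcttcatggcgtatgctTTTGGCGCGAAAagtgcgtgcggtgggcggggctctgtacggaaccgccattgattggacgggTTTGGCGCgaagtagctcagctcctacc
Pola1: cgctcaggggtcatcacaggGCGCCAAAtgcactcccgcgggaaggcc
Cdc6: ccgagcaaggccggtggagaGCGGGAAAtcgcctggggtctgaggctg
Positions are counted from +1 at the transcript start used. The first matched base was at -153 in Mcm5, -110 in Mcm6 and -138 in both Pola1 and Cdc6. The Cdc6 gene begins at chr11:98907709 and the Pola1 gene, on the minus strand, at chrX:93632387, so both stretches lie inside the annotated genes. The Mcm5 start used also lies inside its gene, which begins at chr8:75109468, but its stretch lies upstream of that base. The median difference in number 3 was 0.36 for the 12 genes with the letters in a window, against 0.38 for the 18 without. The windows of E2f1 and E2f8, counted as without, lie inside those genes, as do the matched windows of Lig1 and Uhrf1. Sequence before the first base of E2f1 and E2f8 was therefore not read, so the genes are split by window, not by promoter. WT array 3 was lowest for 9 of the 12 and for 18 of the 18. A match is a run of letters, not a measured binding site.

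Other probe sets of the same genes were read as a check on the choice of probe set. For 27 of the 35 genes there were 41 further single-gene probe sets, of which 32 were higher by the fit and 36 higher in number 3. Their median differences were -0.12, -0.064 and 0.39 for numbers 1 to 3. Of the 25 with a mean at or above the median over genes, 24 were higher in number 3.

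**Figure D3:**
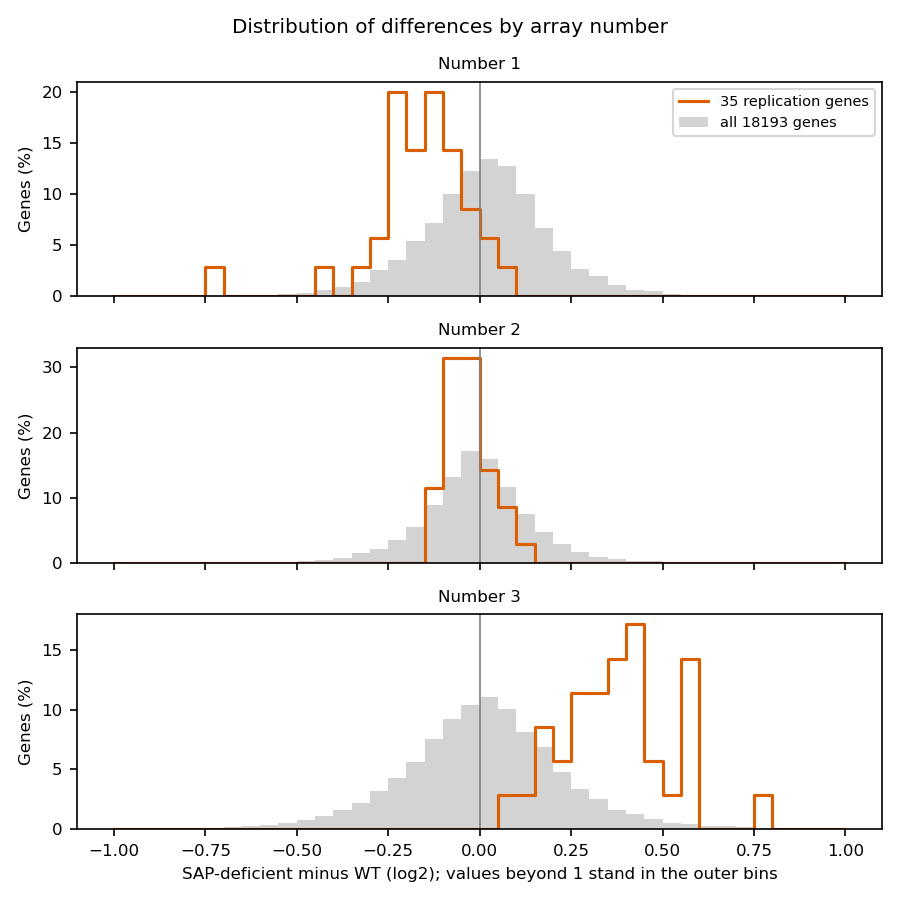
Share of genes (y axis, percent) in each bin of the SAP-deficient minus WT difference (log2, x axis) for the arrays numbered 1, 2 and 3, for the 35 replication genes (line) and all 18193 genes (grey). The line lies left of 0 for 32 of 35 genes in number 1 and right of 0 for all 35 in number 3.

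Further genes of the same pathways were also mostly higher in number 3. Of 91 listed, 89 were measured, 71 were higher by the fit, limma called none, and their median change was 0.060. Mean differences by number were -0.054, -0.019 and 0.20, and 76 of the 89 were higher in number 3. Without WT array 3 the direction turned, with 31 of 89 higher and a median of -0.046. Other licensing and activation factors were higher in 15 of 18 cases, among them Orc3 (0.16 ± 0.14), an origin complex subunit, and Donson (0.11 ± 0.12), a helicase assembly factor (change ± SE). Other replisome enzymes were higher in 21 of 24 cases, among them Atad5 (0.17 ± 0.19), which unloads the clamp, and Chtf8 (0.075 ± 0.089), a partner of an alternative clamp loader. Deoxynucleotide genes were higher in 9 of 12, among them Dctpp1 (0.12 ± 0.12) and the thymidylate kinase Dtymk (0.092 ± 0.093). Chromatin genes were higher in 7 of 7, among them the histone chaperone Asf1a (0.087 ± 0.073) and the maintenance methyltransferase Dnmt1 (0.15 ± 0.19). E2F, RB and cyclin genes were higher in 19 of 28, and the smallest p-values there belonged to genes with lower levels, cyclin D1 Ccnd1 (-0.28 ± 0.20) and the inhibitor Cdkn1c (-0.27 ± 0.20). Each of these 10 genes had an adjusted p of 1.00 by limma. Without WT array 3 the counts by list were 6 of 18, 5 of 24, 6 of 12, 4 of 7 and 10 of 28 in the same order. Dnmt1 was then at -0.085 and Atad5 at -0.038, and the other 8 kept their sign, with Ccnd1 at -0.074, Cdkn1c at -0.078 and the 6 positive ones between 0.015 (Donson) and 0.10 (Chtf8).

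Genes of mitosis were also lowest on WT array 3. All 31 measured of 32 listed were higher by the fit (median 0.14), with mean differences of -0.22, -0.091 and 0.71 by number, and WT array 3 was the lowest array for all 31. Without that array 2 of the 31 were higher and the median was -0.17. The MHC class II median was -0.26, and -0.13 without it. T cell identity genes (12 of 15 measured) differed by -0.021, -0.050 and -0.0050 on average. MHC class II genes (9 of 10 measured) went the other way in number 3, with mean levels of 7.43, 7.19 and 7.05 on SAP-deficient arrays 1 to 3, against 7.48, 7.25 and 7.52 on WT arrays, and mean differences of -0.049, -0.062 and -0.47. B cell genes (16 of 18) averaged 6.31, 6.19 and 6.02 on SAP-deficient arrays, against 6.42, 6.21 and 6.30 on WT arrays. Macrophage and dendritic cell genes (19 of 20) averaged 5.95, 5.80 and 5.88 on SAP-deficient arrays, against 5.96, 5.87 and 5.99 on WT arrays. Tfh genes (5 of 5) differed by -0.049, -0.076 and -0.23, CD8 T and NK cell genes (6 of 7) by 0.064, 0.14 and 0.11 and erythroid and platelet genes (5 of 8) by -0.036, -0.20 and -0.14 by number. No probe set reads 0 on these arrays, so absence cannot be read from them. The 3′ minus 5′ difference of the 18S RNA control was 0.36, 0.18 and 0.45 on SAP-deficient arrays, against 0.42, 0.20 and 0.77 on WT arrays, highest on WT array 3, while actin and Gapdh controls stayed within 0.34 to 0.45 and -0.032 to 0.021. The pyruvate carboxylase control was 1.89, 1.11 and 1.79 on SAP-deficient arrays, against 1.97, 1.13 and 1.19 on WT arrays, so its number 3 difference ran opposite to that of 18S RNA. The transferrin receptor control lay between 2.30 and 2.70. The part of other cell types and of RNA quality in the replication gene differences was not tested.

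**Figure D4:**
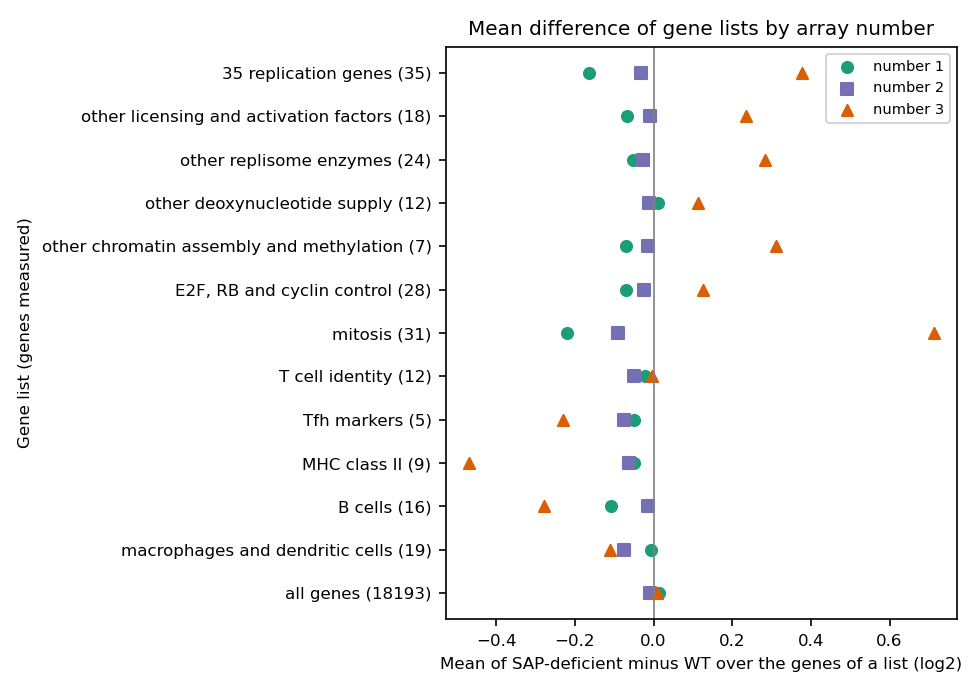
Mean SAP-deficient minus WT difference (log2, x axis) over the measured genes of each list (y axis, number of genes in brackets) for the arrays numbered 1, 2 and 3. In number 3 the replication genes stand at 0.38 and mitosis genes at 0.71, while MHC class II genes stand at -0.47.

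With the array number as a replicate block, limma called 0.0055% of all genes, which was Sh2d1a alone, and none of the 35. The smallest p among the 35 was then 0.154, with an adjusted p of 0.877.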

How the data were processed

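Expression was measured on 6 arrays, 3 SAP-deficient and 3 WT. The deposited values are log2 levels per probe set, for which the submitters' processing notes name RMA and Affymetrix Expression Console, with versions not given in the sources used here. Such values have similar distributions on all arrays (medians 5.73 to 5.77), so levels are relative to the rest of each array, and no depth exists; the number of arrays limits the precision. Of 45101 probe sets, 64 controls were left out. Of the rest, 34945 matched 1 gene, 932 several and 9160 none, by the platform annotation with symbols updated through RefSeq. The brightest probe set matching 1 gene stood for each of 18193 genes; 9 of the 35 genes rest on probe sets that may cross-hybridise. Limma 3.58.1 (R 4.3.3) fitted genotype over 45037 probe sets, with an intensity trend, and p-values were adjusted over genes by Benjamini-Hochberg at 0.05. The script was tested on simulated data. The members and lists were chosen with earlier results of these data known. Genes given in full are, per role group, that with the highest mean and that with the highest absolute difference in number 3; Cdc6, Cdt1, Ccne2 and Rfc3 were added after their values were seen. Of other pathway lists, the 2 genes with the smallest p are named. Alternatives changed the variance model, filter, normalization, array weights, probe set rule, arrays left out and replicate block. Leaving WT array 3 out of the role group medians, the other lists and the further named genes was chosen after seeing the data.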

Additional observations from a re-analysis of the deposited data

How the results depend on the processing

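No member was called under any alternative run. Over all genes, limma called 1 with the replicate block, 1 with robust variance, 3 with both arrays numbered 1 left out and the block, 1 with both numbered 2 left out (with or without the block), 36 with both numbered 3 left out and the block, and 0 to 1 with any 1 array left out. Arrays of equal number deviated together over 17966 genes outside the lists (r 0.58, 0.82 and 0.68, against at most -0.097 for unequal numbers). Each array thus correlated best with its own number. Deviations from a genotype mean cancel out, so positive values for equal numbers draw those for unequal numbers down by construction. The pattern is a hint from the data, not the design. The number of the 35 genes higher was 35 with both arrays numbered 1 left out, 32 with both numbered 2 left out, 15 with array weights (WT array 3 had the lowest weight, 0.529), 2 with both arrays numbered 3 left out (also with the block), and 8 (without WT array 3) to 34 (without SAP-deficient array 1) with 1 array left out. The median change was 0.176 with both arrays numbered 1 left out, 0.1364 with both numbered 2 left out, -0.0091 with array weights, -0.0926 with both arrays numbered 3 left out (also with the block) and -0.0855 to 0.1487 with 1 array left out. Mean differences by number kept their sign under other normalizations and probe sets, at -0.18 to -0.14, -0.048 to -0.017 and 0.33 to 0.41. Fitted changes that turned sign were, with both arrays numbered 3 left out, with and without the block, Chaf1b -0.0589, E2f8 -0.1551, Fen1 -0.036, Lig1 -0.1868, Mcm10 -0.1208, Mcm5 -0.031, Orc1 -0.124, Pcna -0.0354, Pola1 -0.0713, Prim1 -0.1288, Rfc5 -0.0947, Rrm1 -0.1773, Rrm2 -0.13 and Uhrf1 -0.0767. With array weights they were E2f8 -0.045, Fen1 -0.0072, Lig1 -0.0148, Mcm10 -0.0096, Prim1 -0.0662, Rfc5 -0.0318, Rrm1 -0.026, Rrm2 -0.0933 and Uhrf1 -0.001. With the mean of all probe sets they were Ccne1 0.0344, Mcm10 -0.0001 and Orc1 -0.0161. Others were Rrm2 -0.0168 (second quantile normalization), Ccne1 0.007 (medians equalised), Ccne1 0.0709 (no _x_at or _s_at probe sets) and Ccne1 0.0957 (both arrays numbered 1 left out). With 1 array left out, the ranges of those that turned were Ccne1 -0.1042 to 0.0883, Cdc45 -0.0687 to 0.2886, Chaf1b -0.0388 to 0.2172, E2f8 -0.144 to 0.22, Fen1 -0.0358 to 0.1487, Lig1 -0.1035 to 0.2325, Mcm10 -0.043 to 0.151, Orc1 -0.0848 to 0.2471, Pola1 -0.1732 to 0.4557, Prim1 -0.1887 to 0.2537, Rfc5 -0.1571 to 0.2169, Rrm1 -0.1508 to 0.2504, Rrm2 -0.1226 to 0.1208, Uhrf1 -0.0855 to 0.2238. Leaving out 1 array also unbalances the numbers; the cause was not tested otherwise. With 3 arrays per genotype, the fit on genotype alone gave the 35 genes standard errors of 0.064 to 0.31. With the array number as a replicate block, standard errors ran from 0.054 (Cdt1) to 0.16 (Pola1), though the labels do not pair the arrays.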
